A study of Homo sapiens with 6 samples.

Results

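Among the 15622 ac4C peaks called on the pooled SW480 and DLD-1 libraries, 399 lay on host genes whose biotype was antisense_RNA, and these 399 peaks on 338 host genes are described here. The members were chosen by the biotype that the deposited expression table gives for the host's Ensembl ID. No fold or level entered this choice among the called peaks, although it was made with earlier results of these data known. The study sequenced RNA from SW480 and DLD-1, both human colorectal cancer (CRC) cell lines of epithelial origin, which carried the label WT and no treatment and were grown in DMEM with 10% fetal bovine serum. For either line the libraries comprised 1 of Input, 1 of RNA that a NAT10 antibody pulled down (RIP) and 1 of fragmented total RNA that an ac4C antibody pulled down (acRIP). The 6 libraries therefore formed 6 groups of 1, without replicates, so every difference below compares libraries and no p-value was computed. The 2 established lines stand for 2 tumours, and what holds in them was not compared with tissue.

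N4-acetylcytidine (ac4C) is an acetylated cytidine that the acetyltransferase NAT10 places on rRNA, tRNA and, as reported for several cell types, on mRNA. An antisense RNA is a transcript made from the strand opposite to another gene, usually a protein-coding one, and it may overlap that gene's exons or start near its promoter. A fragment of such a place belongs to one RNA or to the other only by its strand, so a peak on an antisense host asks to be read beside the other strand.

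Each peak in the lists has a fold, which is the acRIP to Input ratio that the authors give for the peak, and a count of sites of the 12-base pattern CNNCNNCNNCNN, with 4 cytidines spaced every 3 bases. The sequences below show where such sites lie in members that could be read from RefSeq promoter windows of GRCh38.p14. They are given 5′ to 3′ on the strand of the antisense host, in lower case, with the listed sites in capitals. In 14 members, bases covered by such windows lay before a RefSeq gene start or in the host's own window. Of 227 sites that the lists place in any RefSeq window, 219 (96.5%) had the pattern at the same place. The pattern is common, since 74.9% of all RefSeq windows of 300 bases held it on the gene's strand, so a match describes these bases and is not shown to be an acetylated site.

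The first set comes from members with no pooled peak on the other strand. AL355075.4 had the highest fold of these (245), AC007686.3 was covered over all 179 bases of its peak, AL118506.1 was called in all 3 lists, and AC245052.4 carried 4 sites. AC007686.3 was a weak call, with a fold of 7.25, a false discovery rate (FDR) of at least 0.05 and no peak in either line's list. Such an FDR was listed for 34 of the 399 members (8.52%) and for 4.6% of all pooled peaks. The peaks of TRAPPC12-AS1 and AL109615.3, hosts named further below, are among the 34. AC245052.4 did have an opposite-strand peak in the SW480 list, on PRPF31 with a fold of 6.04. The first 2 stretches lie at chr14:20343540-20343634 (minus strand, in front of and across the PARP2 start) and chr14:77028712-77028890 (plus strand, in front of the IRF2BPL start). The other 2 lie at chr20:63861302-63861497 (minus strand, in front of and across the ABHD16B start) and chr19:54122593-54122711 (minus strand, inside PRPF31).
AL355075.4: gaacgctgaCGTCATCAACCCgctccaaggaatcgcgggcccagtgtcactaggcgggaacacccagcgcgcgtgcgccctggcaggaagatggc
AC007686.3: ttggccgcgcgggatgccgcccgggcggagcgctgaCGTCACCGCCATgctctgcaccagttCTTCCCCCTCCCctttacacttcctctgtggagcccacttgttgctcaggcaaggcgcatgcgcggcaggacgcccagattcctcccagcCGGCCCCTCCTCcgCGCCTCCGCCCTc
AL118506.1: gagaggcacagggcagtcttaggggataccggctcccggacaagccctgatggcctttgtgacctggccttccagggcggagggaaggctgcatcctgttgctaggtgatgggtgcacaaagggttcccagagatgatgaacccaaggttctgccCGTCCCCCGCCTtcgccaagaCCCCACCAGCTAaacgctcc
AC245052.4: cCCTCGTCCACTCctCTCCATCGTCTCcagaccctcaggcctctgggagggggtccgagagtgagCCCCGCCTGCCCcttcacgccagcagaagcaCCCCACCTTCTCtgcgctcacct

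The second set gives only the sites of 2 members that do have a peak on the other strand. AC007163.1 lies opposite BZW1 (chr2:200812020-200812044, minus strand). AC092849.2 has its partner peak on PPP1R35 (chr7:100435371-100435735), and its printed bases (chr7:100436447-100436472, plus strand) lie outside that partner peak.
AC007163.1: CGGCGTCCACGAcCCGCAGCGTCCG
AC092849.2: CTGCCGCCTCCTttCCCCCGCCCCTC

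To see whether the antisense hosts stood alone at these places, each member was first set against the other strand. A pooled peak on the opposite strand shared at least 1 base with 242 of the 399 members, which is 60.7% (95% Wilson interval 55.8 to 65.3). Over all 15622 pooled peaks 6.17% had such a peak, and over the 15223 peaks on other hosts the share was 4.74% (4.42 to 5.09). The antisense peaks thus stood above each other host class shown, although some of that is given by the annotation, because a gene is filed as antisense for lying opposite another gene. Peaks on protein-coding hosts had a peak on the opposite strand in 660 of 14697 cases (4.49%), and peaks on lincRNA hosts, which are non-coding genes outside coding genes, in 14 of 122 (11.5%). Hosts of the class TEC, gene models that await experimental evidence, came nearest, with 14 of 38 (36.8%, interval 23.4 to 52.7). Intervals here cover counting error only.

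**Figure D1:**
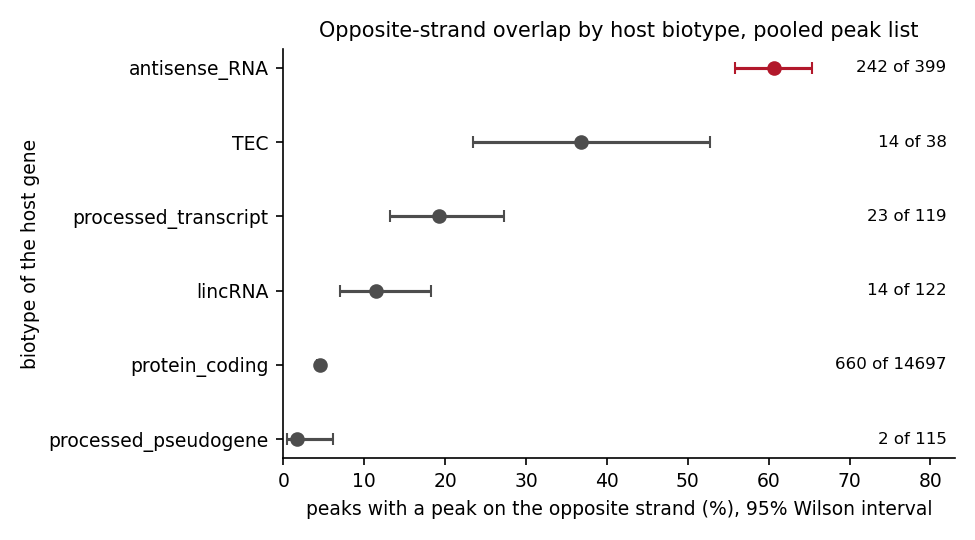
Share of pooled peaks with a peak on the opposite strand (x axis, %) by biotype of the host gene (y axis); points are shares, bars are 95% Wilson intervals and counts stand at the right. The antisense_RNA hosts sit at 60.7%, and their interval does not meet that of any other biotype shown.

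The peaks opposite the members were almost all on mRNA. Of the 242 partners, 241 had a protein-coding host and 1 a sense_overlapping host, and the 242 pairs drew on 231 different partner peaks of 207 genes. By the authors' annotation 135 partners (55.8%) lay in a 3′ UTR, 65 (26.9%) in a coding sequence (CDS), 33 in an exon of no named kind, 8 in a 5′ UTR and 1 on a stop codon. Among all peaks on protein-coding hosts the 3′ UTR share was 50.3% and the CDS share 33.0%, which lie inside the partners' interval for the 3′ UTR (49.5 to 61.9) and just above it for the CDS (21.7 to 32.8). The members themselves were annotated as exon in 396 of 399 cases, as non-coding hosts have no CDS.

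In most pairs the partner covered at least 50% of the member's bases. The partner covered a median of 87.1% of the member's bases (n = 242), all of them in 44 pairs and under 50% in 40 pairs. Start and end were identical in only 5 pairs. In 21 pairs the host was named after the gene on the other strand, such as KRT7-AS opposite KRT7, while 257 of the 338 hosts carried only a clone-based name.

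The strongest member was the peak on AC019349.1 (chr17:41501013-41502409, plus strand), with a fold of 14900 in the pooled list, 13100 in the SW480 list and 3060 in the DLD-1 list. Opposite it lay a peak on KRT13, a keratin of stratified squamous epithelium, with folds of 14800, 13100 and 2950. The partner covered 68.2% of the 446 bases of the member. The fold is thus as high on one strand as on the other in each list. AC019349.1 itself was listed at 0 FPKM in 5 of the 6 level columns and at 1.94 FPKM in the DLD-1 Input of the acRIP table. KRT13 ranged from 0.73 to 3.87 FPKM over the same columns, so the highest fold of the pooled list belongs to a place with little RNA in Input. Of the 14 squamous markers looked up, 2 reached 1 FPKM in the SW480 Input of the RIP table and 4 in the DLD-1 Input, with summed levels of 5.61 and 121 FPKM, of which KRT5 made up 0.27 and 114. Their part in this peak was not tested.

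The other high members repeated this pattern with few exceptions. AL158151.1 (chr9:129176801-129201483) reached a fold of 924 opposite IER5L, an immediate early response family gene, at 1010. KRT7-AS (chr12:52245345-52245760) reached 908 opposite KRT7, a keratin of glandular epithelium, also at 908. AL662797.1 (chr6:30723313-30723877) reached 690 opposite TUBB, a beta-tubulin, at 819. In these 3 pairs the strands lay close together, with member-to-partner ratios of 0.915, 1 and 0.843.

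Further down, AC108002.1 and LY6K were both at 542, AL589765.7 (chr1:151759672-151759911) was at 495 beside 497 for MRPL9, a protein of the mitochondrial ribosome, and AC138150.1 (chr17:45150400-45150719) and HEXIM1, an inhibitor of the elongation factor P-TEFb, were both at 204. A different picture came from AL136982.7 (chr10:86970353-86970826), where the member had a fold of 272 and the partner ADIRF 2460, with 37.8% of the member shared. AC008655.1 (chr19:50310022-50310539) went the other way, with 185 against 30.2 for MYH14, a non-muscle myosin heavy chain, although 94.8% of its bases were shared. Of the 26 members with a fold of at least 100, 22 had a peak on the other strand.

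**Figure D2:**
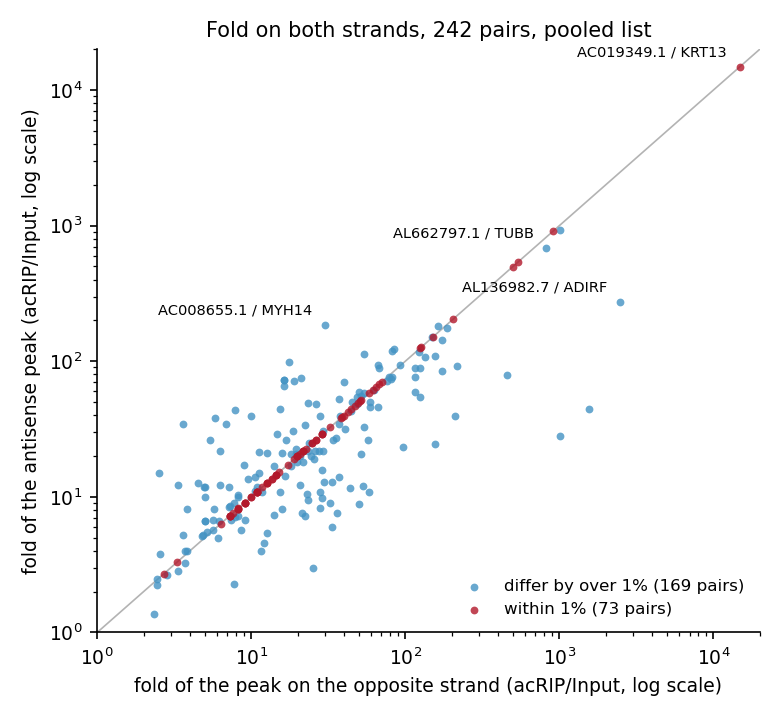
Fold of each antisense peak (y axis, acRIP/Input, log scale) against the fold of the peak on the opposite strand (x axis, log scale) for the 242 pairs of the pooled list; the line marks equal folds and red points lie within 1% of it. The 73 red points run along the whole line up to AC019349.1 and KRT13, and AC008655.1 and AL136982.7 lie far off it on either side.

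The folds of both strands were often the same number. They were equal within 1% in 73 of 242 pairs (30.2%, interval 24.7 to 36.2), within 2-fold in 185 pairs (76.4%), higher on the member in 81 and higher on the partner in 88. The ratio of member to partner had a median of 1 and ran from 0.0278 to 9.50. The p-value that the authors list was identical on both strands in 85 pairs (35.1%). Equal folds went with overlap: they occurred in 3 of 40 pairs that shared under 50% of the member, in 25 of 93 that shared 50% to 90% and in 45 of 109 that shared more. Equal folds were not particular to antisense hosts, since among 479 peaks of other hosts with a partner that was not antisense, 184 (38.4%, interval 34.2 to 42.8) had equal folds too. Both peaks of such a pair can enter this count, so its interval is too narrow. Fold values also repeat in the list in general, where the 5 most frequent values took in 18.3% of the members and 12.6% of all pooled peaks.

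At the low end, AL138963.3 (chr13:45340127-45340303) had a fold of 1.37 opposite TPT1, which encodes the translationally controlled tumour protein, at 2.32. AC125494.1 had 2 overlapping peaks with folds of 2.22 and 2.49 opposite one CDS peak of ZNF384, a zinc finger factor, at 2.45. AP003396.1 had a fold of 2.26 at one peak opposite RNF26, a ubiquitin ligase, at 7.76. AL355312.2, inside PCMT1 on the other strand, had a fold of 2.44 and was the only one of these 5 without a partner. The same hosts also carried strong peaks, with folds of 127 for AP003396.1 and 26.3 for AC125494.1, each equal to the fold of the partner.

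To compare strength over all members, medians were used. The median fold of the 399 members was 15.4 (interval 13.6 to 18.1 from order statistics), against 13.6 over all pooled peaks. The 242 members with a partner had a median of 20.8 (15.8 to 23.5), their partners 21.2, and the 157 members without a partner 12.7 (9.96 to 14.5), close to the 11.8 of the 122 lincRNA peaks. The interval of all members thus reached down to the pooled 13.6, that of the paired members lay above it and that of the unpaired members held it. Member peaks were short, with a median of 181 bases against 211 over all peaks; paired members had 211 bases, unpaired ones 179 and the partners 270.

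Next, the members were followed into the lists of the single lines. A peak on the same strand overlapped 252 members in the SW480 list (63.2%) and 259 in the DLD-1 list (64.9%), where the shares over all pooled peaks were 52.9% and 73.7%. Members were thus found more often than other peaks in SW480 and less often in DLD-1. Of the members, 135 were in both lists, 117 in the SW480 list only, 124 in the DLD-1 list only and 23 in neither, these last with folds of 4.08 to 14.5. The acRIP depth is unknown, so how far depth set these shares was not tested. For members in 1 list only, the level of the gene opposite was set beside the list. The median log2 ratio of SW480 to DLD-1 Input (acRIP table) was -0.15 for 48 partner genes of members in the SW480 list only. It was 0.02 for 65 of members in the DLD-1 list only. In the first set 20 genes were higher in SW480 and 28 in DLD-1, and in the second 34 and 30. Whether these levels bear on the calls was not tested.

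In paired members, both strands were mostly called together or not at all in a line's list. These members were picked for a pooled peak on both strands, and the pooled list comes from the same libraries. Part of the high shares that follow is therefore given by that choice. Among 161 paired members found in the SW480 list, 157 (97.5%) had a peak on the other strand in that list as well, and among 81 not found there 11 did. In the DLD-1 list the counts were 174 of 180 (96.7%) and 6 of 62. Counted within each line's own list, 177 of 282 antisense peaks in SW480 (62.8%) and 203 of 304 in DLD-1 (66.8%) had an opposite-strand peak. The interval of the SW480 share (57 to 68.2) holds the pooled 60.7%, and that of the DLD-1 share (61.3 to 71.8) begins just above it. Folds were equal within 1% in 75 of the SW480 pairs (42.4%, interval 35.3 to 49.7) and in 62 of the DLD-1 pairs (30.5%, interval 24.6 to 37.2).

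The size of the difference between the lines was also shared by both strands. In the 101 pairs called on both strands in both lists, the log2 ratio of the SW480 fold to the DLD-1 fold on the member correlated with that on the other strand (Pearson r = 0.86, Spearman rho = 0.85), and 85 pairs had the same sign. The points share libraries and mostly bases, so this is a description. KRT7-AS fell from 2990 in SW480 to 199 in DLD-1, and KRT7 from 2990 to 200. AC138150.1 and HEXIM1 both went from 214 to 16.5. AL662797.1 stood out, with 7.15 in SW480 and 569 in DLD-1, where TUBB had 99.3 and 556. The folds cannot be set on one scale across the lists beyond this, because no list was scaled to another. In these bulk libraries fewer cells with an RNA and less RNA per cell cannot be told apart.

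**Figure D3:**
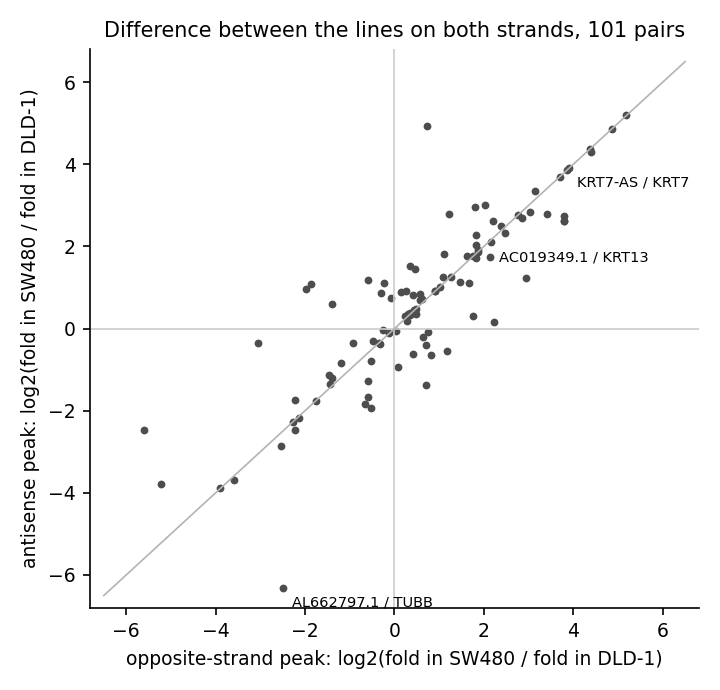
Log2 ratio of the SW480 fold to the DLD-1 fold on the antisense peak (y axis) against the same ratio on the opposite-strand peak (x axis) for 101 pairs, 1 point per pair, with lines at 0 and at equality. Most points follow the diagonal, and 85 of 101 pairs have the same sign on both strands.

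Not all members had company on the other strand. In none of the 3 lists did 146 members share a base with an opposite-strand peak, and 27 of these were called in both lines. They include several long-studied non-coding RNAs. ZFAS1, a snoRNA host gene, had 2 such peaks, one with folds of 102, 65.8 and 242 in the pooled, SW480 and DLD-1 lists (chr20:49281764-49289259, plus strand) and one with 4.81, 4.12 and 5.93. TUG1, a long non-coding RNA, had 5 peaks with pooled folds of 3.72 to 21.7, of which 2 were in both lines, at 14.6 and 39.7 and at 13.5 and 22 in SW480 and DLD-1. SNHG12, another snoRNA host gene, had 1 peak with folds of 20.8, 27.1 and 15.7. FGD5-AS1 had 3 peaks from 3.57 to 16.9, and the one found in both lines stood at 4.16 in SW480 against 43.0 in DLD-1.

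The highest fold without an opposite-strand peak in any list belonged to AL355075.4, at 245 in the pooled list and 212 in DLD-1, with no peak in the SW480 list. It lies in front of and across the start of PARP2, a DNA repair enzyme. Next were AP003352.1 (173 pooled, 385 in SW480, 190 in DLD-1) and AC084125.1 (133, 181 and 11). The first ZFAS1 peak (102) came after them, followed by AC079328.2 (86.9, 86.4 and 67.6), which lies inside TPM1 on the other strand. AC008771.1, inside ZFYVE16, had 72.5, 47.9 and 26.7. AC079328.2 was nearly level in both lines, whereas AC084125.1 differed between them by over 10-fold. PINK1-AS, named after a kinase gene of mitochondrial quality control, had 2 peaks with pooled folds of 37.1 and 18.2, and MAFG-AS1 had 1 with 54.3 (54.1 in SW480, 10.2 in DLD-1). The 27 peaks called in both lines had a median fold of 29.5.

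**Figure D4:**
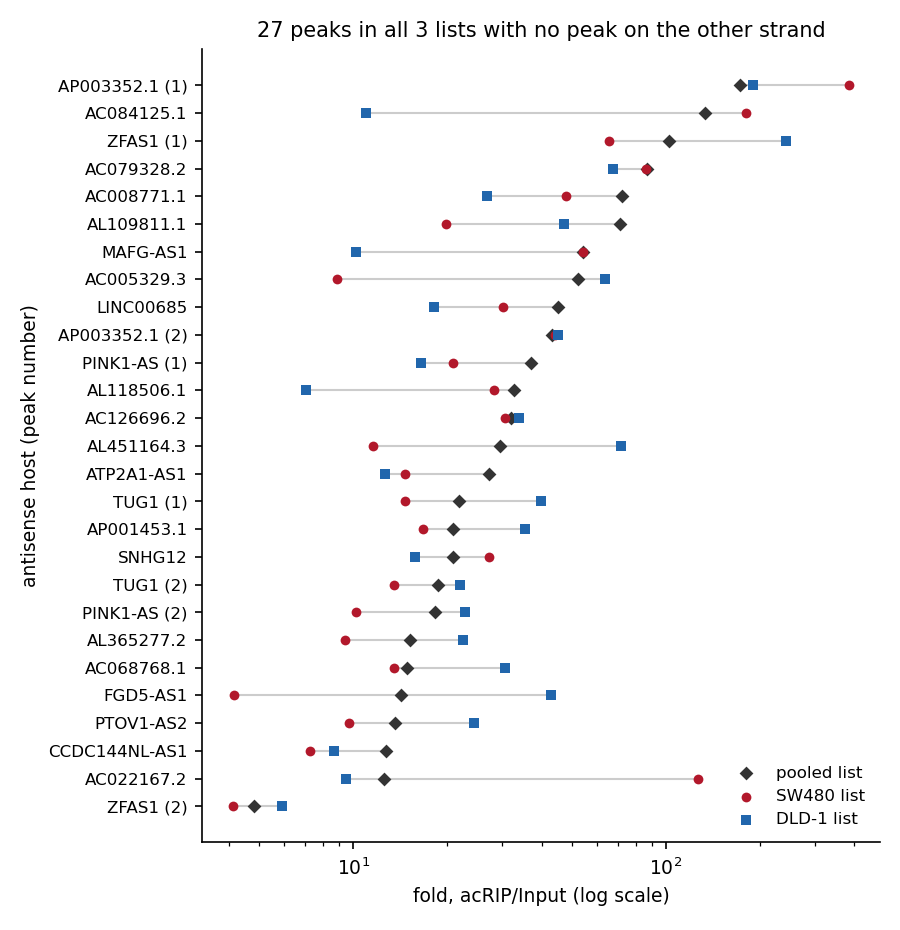
Folds (x axis, acRIP/Input, log scale) in the pooled, SW480 and DLD-1 lists for the 27 members called in all 3 lists with no opposite-strand peak in any of them (y axis, host names, numbered where a host has several peaks). The folds of a peak differ most between the lines for AC084125.1, AC022167.2 and FGD5-AS1 and least for AP003352.1 (2) and AC126696.2.

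A coding gene on the other strand was more frequent than a peak there. With the strand known for 17160 of 20056 RefSeq coding genes, 307 of the 381 members off chromosome 8 (80.6%) overlapped the span of a coding gene on the opposite strand. For coding peaks off that chromosome the share was 6.25%. Among the members without a partner it was 81 of 150 (54.0%), and these stretches can be introns or exons without a peak. The coding genes opposite unpaired members, 81 in all, were as abundant as the partner genes, with medians of 10.1 and 12.4 FPKM in the SW480 and DLD-1 Inputs of the RIP table, against 11.9 and 11.1. Of these 81 genes, 54 had a pooled ac4C peak at another place. The same share over all coding genes was not computed, so this count does not set these genes apart.

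Hosts with several peaks split into the same kinds. At least 3 members lay on each of 11 hosts. In TUG1 (5 peaks), FGD5-AS1, RNASEH1-AS1 and AC025569.1 (3 each) no peak had a partner. In AC125494.1 and MIR497HG (4 each), AC005523.2, AC037459.3 and AL358781.1 (3 each) every peak had one, on ZNF384, C17orf49 or its read-through transcript, FEM1A, CCAR2 and PRRC2B. AC004241.1 had 2 of 3 peaks opposite RAPGEF3, and AC022167.2 had 1 of 3 opposite CARHSP1, with a fold of 114 at that peak and 12.5 and 2.56 at the others. Several of these peaks overlap one another on 1 host and are not separate places. In all, 17 members shared bases with another member of the same strand, on the same host or on another.

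The fixed list of known antisense RNAs held 30 names, 19 of which had the biotype used here. Members lay on 7 of the 19, where 338 of all 5517 antisense_RNA genes were hosts. There were 15 peaks in all, of which TUG1 held 5, FGD5-AS1 3, and ZFAS1 and GAS6-AS1 2 each, so the peaks are not separate units. Of the 15 peaks 1 had a partner, beside 60.7% of all members. That 1 was HOXA-AS3 (chr7:27154189-27154369), opposite the 3′ UTR of the homeobox gene HOXA7, with a fold of 12.7 on both strands in the pooled list and of 11 on both in DLD-1. TMPO-AS1 had 1 peak (9.96) and GAS6-AS1 had 2 (13.1 and 9.96). HOTAIR, HOTTIP, HOXA-AS2, HAGLR, ZEB1-AS1, KCNQ1OT1, AFAP1-AS1, NNT-AS1, FOXP4-AS1, MCM3AP-AS1, CDKN2B-AS1 and DLEU2 had none.

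The 12-base pattern was then compared. At least 1 listed site lay in 242 of 399 members (60.7%, exact binomial interval 55.7 to 65.5) and in 54.1% of all pooled peaks, with 5.47 and 4.65 sites per kilobase. Paired members had a site in 66.1% (5.74 per kilobase) and unpaired ones in 52.2% (4.92 per kilobase), so unpaired members stood near the pooled list. In the 48899 bases shared by the pairs, the lists placed 269 sites on the member's strand and 299 on the partner's. The member had more sites in 70 pairs, the partner had more in 70, and a site lay on both strands in 75 and on neither in 76. In these counts neither strand had more pairs with the larger number of sites.

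Single members were richer in sites. AC009133.1, opposite the 3′ UTR of the zinc finger gene MAZ, had 11 sites in its 1018 bases, the most of any member, and the partner had 12 in the same bases. VPS9D1-AS1 (fold 12.3, no partner) and CACTIN-AS1 (13.6, as CACTIN) had 10 each. In 34 members there were 4 sites or more, among them AL158151.1 (7), KRT7-AS (6) and AC007163.1 and AC007686.3 (4 each), whose sites are partly printed above. High folds did not need a site: AC138150.1 and AC008655.1 had none, while MYH14 opposite the latter had 8 in the shared bases.

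The level of the hosts depended on the table. In the RIP table, 196 of 338 hosts (58.0%) were listed at 0 in the SW480 Input and 207 (61.2%) in the DLD-1 Input. In the second table of Inputs, deposited with the acRIP data and read here as FPKM, only 44 and 41 were at 0, and the medians were 3.67 and 3.43 FPKM. Between 40.5% (SW480) and 45.0% (DLD-1) of the hosts were at 0 in the first table and at 1 FPKM or more in the second, against 11.5% and 13.3% of all antisense_RNA genes and 0.317% and 0.353% of protein-coding genes. The gap lay with the paired hosts: 117 of 210 (55.7%) changed so in SW480, against 20 of 128 hosts without a partner (15.6%). Over 16278 coding genes the Inputs of the 2 tables correlated at Pearson r = 0.96 in either line. Whether both tables count the same Input library of a line is not stated. Neither table states whether strand was used in counting, and reads of a gene and its antisense partner cannot be told apart without it.

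Set beside the gene on the other strand, the hosts followed it in one table only. In the RIP table the partner gene was higher in 222 of 242 pairs in the SW480 Input and 224 in the DLD-1 Input, and log2(FPKM + 1) of host and partner was uncorrelated (Pearson r = 0.10 and 0.06). In the acRIP table the partner was higher in 147 and 144 pairs, and r was 0.64 and 0.57. Pairs share libraries, and some share a gene, so these are descriptions. AC010761.1, opposite the ribosomal protein gene RPL23A, had 10.2 and 7.99 FPKM in the SW480 and DLD-1 Inputs of the RIP table and 259 and 144 FPKM in those of the acRIP table. RPL23A had 240 and 128 FPKM in the first and 266 and 148 in the second. AL662797.1 went from 0 in both Inputs to 418 and 238 FPKM, beside 257 and 133 for TUBB. Hosts without a partner were mixed. ZFAS1, TUG1 and FGD5-AS1 differed by less than 3-fold between the tables in either line, but TMPO-AS1 stood at 0.102 and 0 FPKM in the RIP table and at 46.7 and 26 in the acRIP table, and AC126696.2 at 0 in both Inputs of the first and at 56.2 and 67.7 FPKM in the second. Over hosts with 1 FPKM or more in either table, the median log2 ratio of the acRIP table to the RIP table was 0.43 (SW480, n = 88) and 0.72 (DLD-1, n = 90) without a partner, and 2.95 (n = 167) and 2.96 (n = 170) with one.

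**Figure D5:**
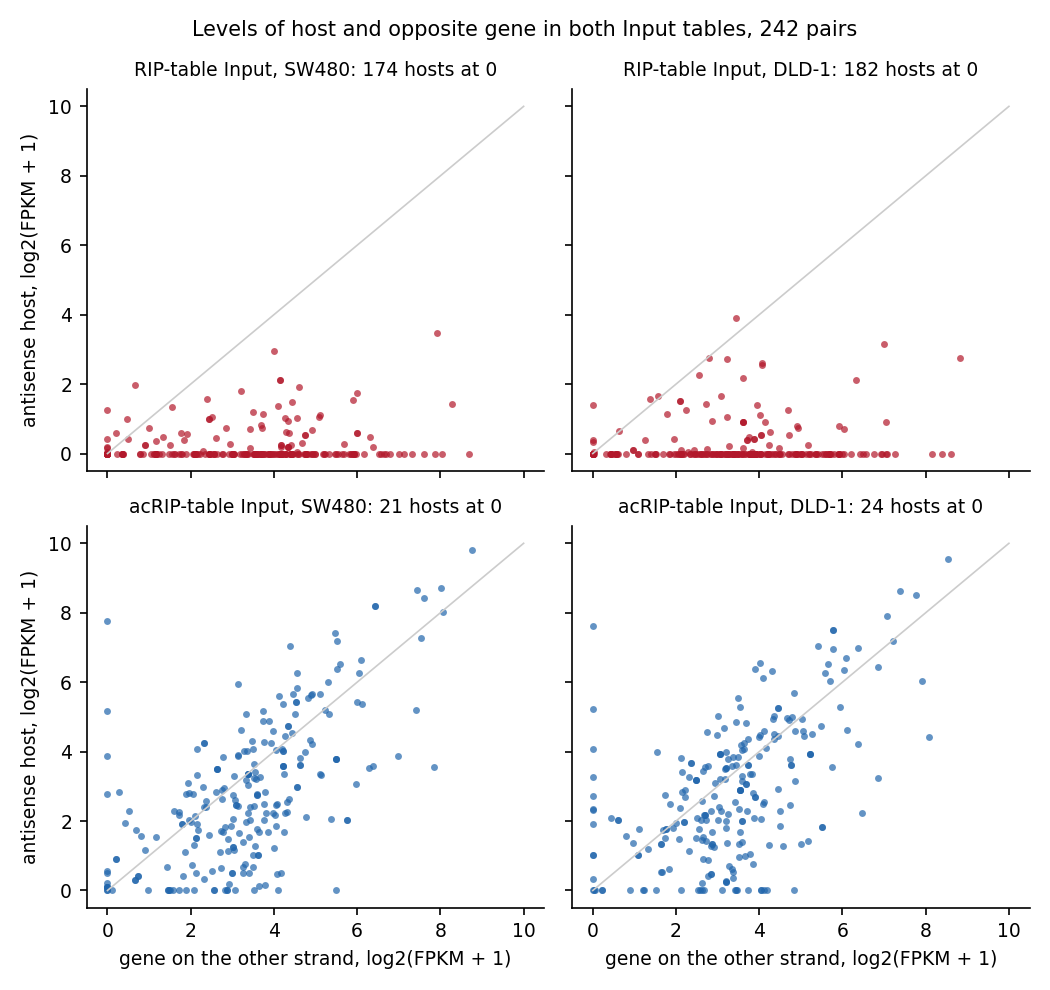
Level of the antisense host (y axis, log2(FPKM + 1)) against that of the gene on the other strand (x axis, same scale) for 242 pairs, in the Inputs of the RIP table (top) and of the acRIP table (bottom), SW480 at left and DLD-1 at right; the line marks equal levels. At the top 174 and 182 points lie at a host level of 0, and at the bottom 21 and 24.

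Finally, binding to NAT10 was compared in the RIP table as the log2 ratio of RIP to Input after 1 FPKM was added to each, so that changes of low genes are understated. Only 47 of the 338 hosts had 1 FPKM or more in both Inputs. Their median was -0.12 with the SW480 labels and -0.22 with the DLD-1 labels, against 0.05 and -0.05 over 12324 genes and -0.95 and -1.23 over the 444 antisense_RNA genes that passed. RIP was at least 2-fold above Input for 5 hosts in SW480 (10.6%) and 7 in DLD-1 (14.9%), where 15.6% and 15.1% of all genes were, and at least 2-fold below for 6 (12.8%) and 9 (19.1%), where 16% and 19.2% were. The hosts' counts are near these shares in either direction. The labels need care, because over 16278 coding genes the SW480-labelled RIP library was closer to the DLD-1-labelled Input (Pearson r = 0.95 on the log2 scale) than to its own (0.87), and the DLD-1-labelled RIP library closer to the SW480-labelled Input (0.95 against 0.86).

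ZFAS1 had the highest smaller-of-both-lines ratio. It stood at 40.4 FPKM in RIP and 11.8 in Input with the SW480 labels and at 50.9 and 8.13 with the DLD-1 labels, which is 1.70 and 2.51 on the log2 scale (counting SE 0.11 and 0.14), and 2.18 and 2.02 with the Inputs exchanged. HOXA10-AS followed with 1.06 and 1.15, but with the Inputs exchanged it had -0.02 and 2.23. ASB16-AS1 (0.68 and 0.66), AC074117.1 (1.11 and 0.36) and AC005034.3 (0.63 and 0.34) came next. Of the 47 hosts only ZFAS1 was at least 2-fold above both Inputs in both RIP libraries. The share of all genes that were was not computed. By own labels alone, 2 hosts (4.26%) were at least 2-fold above Input in both lines, beside 3.55% of all 12324 genes.

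The lowest ratios belonged to AC010761.1 (-2.95 and -3.11), IER3-AS1 (-0.89 and -2.56), TRAPPC12-AS1 (-2.30 and -1.68), AC020915.4 (-1.56 and -1.62) and AL109615.3 (0.02 and -1.55). TRAPPC12-AS1 was listed at 0 in both RIP libraries and at 3.92 and 2.20 FPKM in Input. AC010761.1, AC020915.4 and TRAPPC12-AS1 were at least 2-fold below both Inputs in both RIP libraries, and the share of all genes that were was not computed. By own labels alone, 3 hosts (6.38%) were at least 2-fold below Input in both lines, beside 7.29% of all 12324 genes. TUG1 (-0.32 and 0.56) and FGD5-AS1 (-0.15 and 0.22) stayed within 2-fold. NAT10 itself was at 21.2 and 23.0 FPKM in the Inputs of the RIP table, and THUMPD1, its adaptor for tRNA, at 10.0 and 6.02 FPKM.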

How the data were processed

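Per the labels' processing notes, the authors used cutadapt (2.5) and HISAT2 (2.1.0) with GRCh38; a mouse build is also named there. The peak caller, counting tool and strand setting are not given in the sources used here. The authors deposited FPKM values for RIP and Input, a second Input table whose unit is not named and was read as FPKM, and 3 peak lists (SW480, DLD-1, pooled) with a p-value, a log10 FDR, a fold (ratio of acRIP to Input) and pattern sites. Their RIP/Input ratios for coding genes were not used. Relative to the RIP library labelled SW480, depths in the RIP table were 0.493 (Input SW480), 0.85 (RIP DLD-1) and 0.456 (Input DLD-1), from the commonest ratio between columns. The counting SE uses the smallest whole reads that give a gene's FPKM. The depth of the acRIP libraries is unknown.

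Starts count from 0 in the lists and are printed 1 higher. Overlaps were counted block by block in Python (3.11.15; pandas 2.3.3, SciPy 1.17.1) and tested on simulated data. The best partner shared most bases. The pseudocount was 1 FPKM. Coding gene spans, names and sequences come from RefSeq (GRCh38.p14). Members and lists were chosen with earlier results of these data known. Named hosts are AC019349.1, the 10 highest and 5 lowest folds, the 5 highest without an opposite-strand peak, peaks of that kind in all lists, members with at least 4 sites, hosts with at least 3 members, the 5 highest and lowest RIP/Input ratios and the known list; of the longer sets only examples are printed. The lists of markers comprised colorectal epithelium (7 to 11 of 12 at 1 FPKM or more in each column), squamous epithelium (0 to 6 of 14) and leukocytes (0 of 5).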

Additional observations from a re-analysis of the deposited data

Results flagged for a closer look

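Of the 47 hosts, 20 had RIP/Input ratios of opposite sign in the lines, with 1 library each, and the differences were not tested. Larger differences than those below occurred among hosts chosen after their values were seen, such as PP7080 (1.68 with the SW480 labels and -0.56 with the DLD-1 labels) and SPINT1-AS1 (-0.12 and 1.95). The named hosts among the 20 were SNHG12, TUG1, FGD5-AS1 and AL109615.3. For SNHG12 the ratio was -0.07 with the SW480 labels and 1.48 with the DLD-1 labels, a difference (DLD-1 minus SW480) of 1.56 on the log2 scale. For TUG1 it was -0.32 and 0.56, a difference of 0.88. For FGD5-AS1 it was -0.15 and 0.22, a difference of 0.37. For AL109615.3 it was 0.02 and -1.55, a difference of -1.57. With the Inputs exchanged between the labels, SNHG12 had 0.83 and 0.58, TUG1 0.12 and 0.11, FGD5-AS1 0.10 and -0.04, and AL109615.3 -0.65 and -0.88.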

How the results depend on the processing

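Of 44 alternatives, 29 left a result within its interval, or its count within 1.5 times, and 15 moved it; no median of RIP/Input changed sign, and the cause of the moves was not tested. With at least 50% of a peak covered, the share with an opposite-strand peak was 50.6% for members and 3.53% for other peaks, and with whole spans it was 5.14% for other peaks. Among members with a p-value below the pooled median it was 76.8%. The median fold was 12.7 without an opposite-strand peak and 19.8 in the SW480 list. The motif share was 65.8% at or above the pooled median fold and 52.2% without an opposite-strand peak. With acRIP-table Inputs the partner gene was higher in 147 (SW480) and 144 (DLD-1) pairs, an alternative chosen after seeing the data, as were those on equal folds (5%, or at least 50% shared) and on length. Hosts with RIP at least 2-fold over Input numbered 13 (SW480) and 14 (DLD-1) with Input above 0, 3 in SW480 when centred on coding genes, and in DLD-1 3 with the Input of the other label and 4 with the acRIP-table Input. A pattern count of the genome was not run, as no genome was used here. No paired analysis was possible because each group has 1 library and no test was made. With 1 library per group, no spread between samples could be measured, and the intervals leave out biological and technical variation.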
